A study of Mus musculus with 12 samples.

Results

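The 10 genes described here belong to the molecular circadian clock: Arntl, Clock, Per2, Per3, Cry1, Nr1d1, Nr1d2, Dbp, Ciart and Bhlhe41. They were taken by name, by matching the Entrez gene identifiers of the deposited count tables to mouse gene symbols, and are 10 of 27179 identifiers. All 10 passed the filter on low counts in every comparison, and 25 other genes tied to the clock were listed beside them. Messenger RNA of mouse fat (adipose tissue, strain C57BL/6J, genotype WT, day 7) was sequenced in 4 groups of 3 libraries: adults left untreated, adults given a scald burn injury, aged animals left untreated, and aged animals given the burn. Per the labels' protocols, burns were made by immersion in water at 98 °C, on the back for 10 s to cover 20% of the body surface, and in adults also on the belly for 2 s to cover a further 10%. Adults thus had burns of 30% and aged animals of 20%, and buprenorphine was the pain relief named. The sources used here do not give the hour of tissue collection, the fat depot, sex, age in weeks, or any sham procedure or pain relief in untreated mice. Libraries are numbered, but whether a library is also a mouse is not stated, so the p-values measure only the spread between libraries, which may be technical.

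The clock is a feedback loop of transcription that runs in nearly every cell, fat cells included. The ARNTL protein (also called BMAL1) pairs with CLOCK, binds DNA elements called E-boxes and switches on the Per, Cry, Nr1d, Dbp, Ciart and Bhlhe41 genes. PER and CRY proteins then block ARNTL-CLOCK, CIART and BHLHE41 repress the same targets, and the nuclear receptors NR1D1 and NR1D2 (REV-ERB alpha and beta) repress Arntl itself through elements called ROREs. DBP and its relatives TEF and HLF activate genes that carry D-boxes, where NFIL3 acts as their repressor. Because of this wiring, Arntl and the Nr1d and Dbp transcripts peak at roughly opposite times of day, so their levels in a tissue depend on the hour at which it is taken.

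The elements through which the 2 arms of the loop meet can be read in the promoter sequences of some members. The windows run from 250 bases before to 50 bases after each transcription start, from RefSeq with assembly GRCm38.p6, and 9 of the 10 members had at least 1 window there; Per2 had none. The motifs below were searched on both strands: the E-box CACGTG, the D-box TTANGTAA and the RORE, which do not overlap in the stretches shown. The E-box was present in 3 of the 9 members (Ciart, Bhlhe41 and Cry1) beside 8.09% of the 27025 genes with a window (7.15% of all 32851 windows). The D-box was in 1 member (Per3) beside 2.72% of genes (2.32% of windows), and the RORE in 1 (Arntl) beside 0.459% of genes (0.384% of windows). A match here is a description of letters and not a measured binding site. The stretches are printed 5′ to 3′ on the strand of the gene, with the motif in capitals. Those of Ciart, Bhlhe41, Cry1 and Per3 stop where the gene begins in RefSeq or in the GENCODE annotation, whichever comes first. Each thus ends before the transcription start of its window, from which the distances here are counted. Ciart carried the E-box 3 times, beginning 116, 58 and 44 bases before the start:
Ciart, E-boxes, chr3:95882258-95882478, minus strand: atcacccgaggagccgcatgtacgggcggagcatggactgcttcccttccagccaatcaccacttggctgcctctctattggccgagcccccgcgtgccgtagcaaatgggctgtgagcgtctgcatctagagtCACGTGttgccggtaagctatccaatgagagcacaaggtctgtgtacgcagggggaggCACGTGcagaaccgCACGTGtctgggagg
Bhlhe41, E-box, chr6:145865559-145865670, minus strand: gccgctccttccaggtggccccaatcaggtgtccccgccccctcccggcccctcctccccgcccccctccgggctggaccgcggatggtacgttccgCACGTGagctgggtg
Cry1, E-box, chr10:85185065-85185304, minus strand: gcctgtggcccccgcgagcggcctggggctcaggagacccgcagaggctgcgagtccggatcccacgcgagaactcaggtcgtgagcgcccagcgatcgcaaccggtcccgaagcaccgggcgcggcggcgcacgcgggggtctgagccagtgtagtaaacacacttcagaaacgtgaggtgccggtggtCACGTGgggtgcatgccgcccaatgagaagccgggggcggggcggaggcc
Per3, D-boxes, chr4:151044708-151044915, minus strand: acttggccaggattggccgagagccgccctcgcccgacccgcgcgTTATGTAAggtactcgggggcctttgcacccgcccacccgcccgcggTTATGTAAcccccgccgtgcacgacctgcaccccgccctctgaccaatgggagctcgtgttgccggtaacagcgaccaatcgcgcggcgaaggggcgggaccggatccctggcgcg
Arntl, RORE, chr7:113207529-113207555, plus strand: gaaggcagAAAGTAGGTCAgggacgga
The Cry1 E-box began 60 bases before the start and that of Bhlhe41 153 bases before it. In Per3 the 2 D-boxes began 205 and 158 bases before the start. The Arntl stretch lies after one of its annotated starts, inside the gene, and is the element type that NR1D1 and NR1D2 bind. In the data below, Cry1, which shares the E-box with Ciart and Bhlhe41, did not follow their levels.

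Library totals ran from 25231506 to 32236330 counts in the adult table and from 31846557 to 46531070 in the aged table. Expression is given as CPM (counts divided by library size, scaled by TMM over the 12 libraries, so comparable between libraries), and changes as edgeR log2 fold changes ± SE with Benjamini-Hochberg adjusted p-values over all genes tested. Adult and aged mice were deposited in separate tables, so age cannot be told apart from the table or, after burn, from burn size. Fat-cell markers were abundant in all 12 libraries (12 genes led by Fabp4), with summed levels from 13617 to 72639 CPM. Some libraries stood apart: Adult control 1 held 1393 CPM of lymphocyte markers against at most 26.0 in the others, Adult burn 1 held 3029 CPM of skeletal muscle markers, and Aged burn 2 held 16742 CPM of macrophage and 1713 CPM of neutrophil markers.

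Among the activators, Arntl was low in 1 group alone. Arntl encodes the partner without which the clock does not run in mice, and lies on chromosome 7 (113178471 to 113314126). Its level was 20.3, 11.2 and 17.0 CPM in Adult controls 1 to 3 and 9.84, 27.9 and 14.0 CPM in Adult burns 1 to 3. In Aged controls 1 to 3 it was 5.67, 3.49 and 5.48 CPM, and in Aged burns 1 to 3 it was 14.8, 16.4 and 11.96 CPM. All 3 aged controls were below every other library, and the other 3 groups overlapped one another. Mean Arntl in aged controls was 0.302 times that of adult controls.

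Clock, the DNA-binding partner of ARNTL (chromosome 5, 76209868 to 76305603), showed no such pattern: its group means were 62.3 ± 10.5 CPM in adult controls, 78.8 ± 6.80 after adult burn, 66.2 ± 16.8 in aged controls and 61.9 ± 9.44 after aged burn (SD, n = 3). Neighbours in the order of these means overlapped. Npas2, which can stand in for CLOCK and was listed beside the members, had the order of Arntl instead, with 4.43 to 5.18 CPM in adult controls, 4.44 to 11.3 after adult burn, 1.03 to 2.33 in aged controls and 2.60 to 4.09 after aged burn. As for Arntl, no aged control reached the lowest library of another group.

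**Figure D1:**
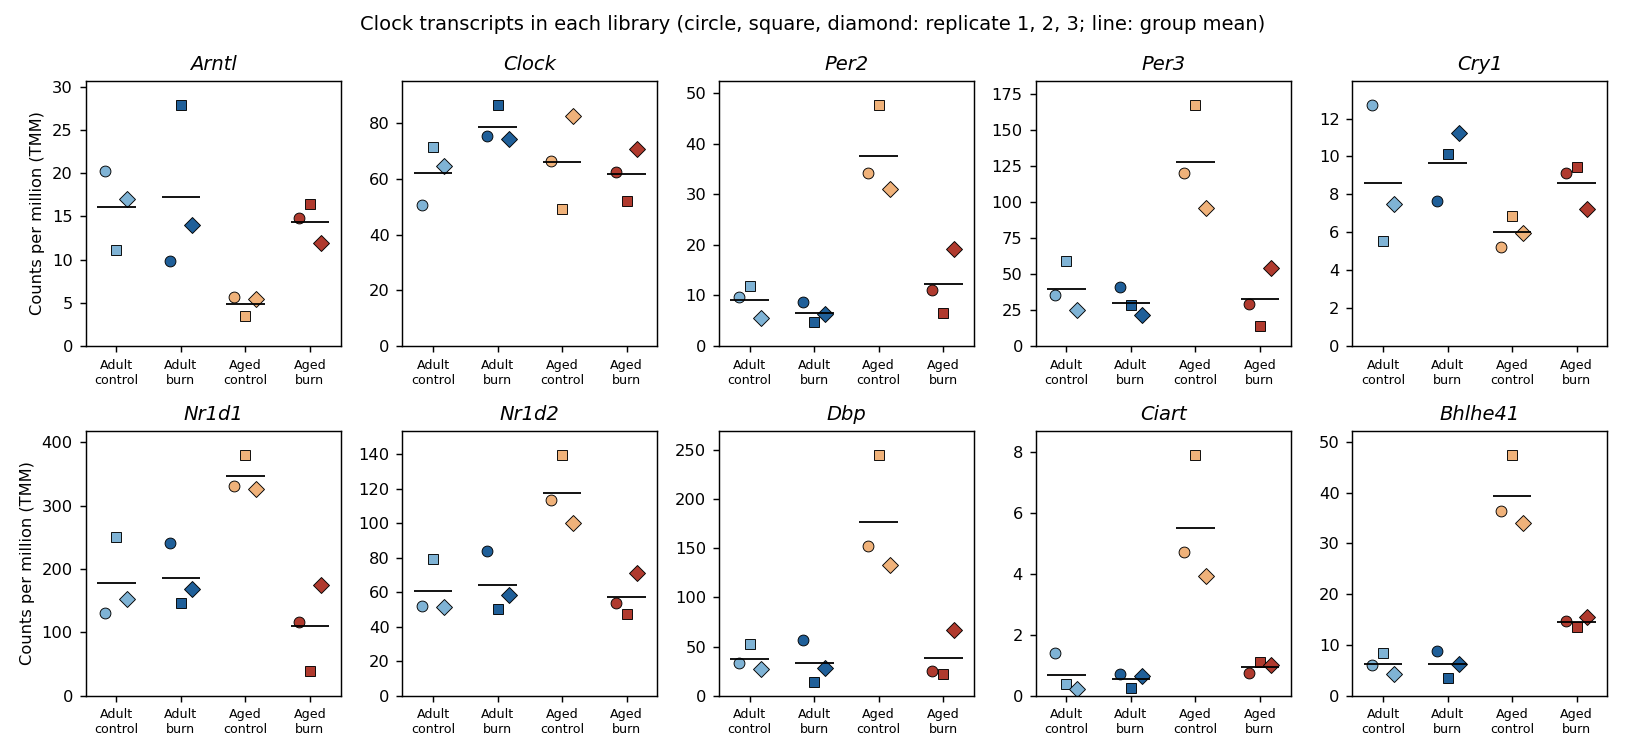
CPM (y axis of each panel) of the 10 clock genes in the 12 libraries, by group (x axis), with a point for each library, its shape giving the replicate number and a line at the group mean. The 3 aged controls lie above every other library for Per2, Per3, Nr1d1, Nr1d2, Dbp, Ciart and Bhlhe41 and below every other library for Arntl.

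The repressors of the negative arm mirrored Arntl, except for Cry1. Per2, a core PER protein (chromosome 1, 91415977 to 91459351), was at 9.68, 11.9 and 5.49 CPM in Adult controls 1 to 3, at 8.80, 4.72 and 6.30 CPM in Adult burns 1 to 3, at 34.2, 47.7 and 31.1 CPM in Aged controls 1 to 3, and at 11.1, 6.49 and 19.2 CPM in Aged burns 1 to 3. Every aged control was above the highest library of the other groups, and Aged burn 3 was the nearest to them. Per3, a further PER protein (chromosome 4, 150997018 to 151044707), ran from 96.2 to 168 CPM in aged controls, against 24.9 to 58.8 in adult controls, 21.6 to 40.9 after adult burn and 13.9 to 54.6 after aged burn. For both genes the order of the remaining 3 groups could not be told apart by their ranges.

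Ciart, also called CHRONO, is a repressor of ARNTL-CLOCK on chromosome 3 (95878500 to 95882257). It was at 1.40, 0.387 and 0.232 CPM in Adult controls 1 to 3, at 0.720, 0.255 and 0.638 CPM in Adult burns 1 to 3, at 4.72, 7.90 and 3.93 CPM in Aged controls 1 to 3, and at 0.732, 1.09 and 1.01 CPM in Aged burns 1 to 3. It was the scarcest member, so its adult values rest on few counts. Aged controls stood clear of the rest, at 8.21 times the mean of adult controls, and burned aged mice lay just above burned adults but overlapped adult controls. Bhlhe41 (DEC2), an E-box-binding repressor on chromosome 6 (145858243 to 145865420), was at 5.98, 8.48 and 4.25 CPM in Adult controls 1 to 3, at 8.88, 3.57 and 6.21 CPM in Adult burns 1 to 3, at 36.4, 47.4 and 34.03 CPM in Aged controls 1 to 3, and at 14.8, 13.6 and 15.4 CPM in Aged burns 1 to 3. Bhlhe41 alone separated 3 levels: both adult groups low and overlapping, burned aged mice above every adult library, and aged controls above those. Cry1, a cryptochrome that blocks ARNTL-CLOCK (chromosome 10, 85131700 to 85185054), had means of 8.58 ± 3.70, 9.66 ± 1.84, 6.00 ± 0.824 and 8.60 ± 1.20 CPM in adult controls, adult burns, aged controls and aged burns (SD, n = 3), and its neighbouring groups overlapped.

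The REV-ERB genes, whose proteins repress Arntl, were also highest in aged controls. Nr1d1 (chromosome 11, 98767932 to 98775377) was at 131, 251 and 152 CPM in Adult controls 1 to 3, at 242, 146 and 169 CPM in Adult burns 1 to 3, at 331, 380.1 and 327 CPM in Aged controls 1 to 3, and at 116, 39.3 and 175 CPM in Aged burns 1 to 3. Aged controls did not overlap any group, and Aged burn 2, the library with the most macrophage and neutrophil transcripts, was the lowest of the 12. Nr1d2 (chromosome 14, 18204056 to 18239106) ran from 100.02 to 139.6 CPM in aged controls, from 51.4 to 79.2 in adult controls, from 50.5 to 83.8 after adult burn and from 47.2 to 71.0 after aged burn. Its spread within aged burns was narrower than that of Nr1d1.

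Dbp, the output activator on chromosome 7 (45705100 to 45710203), had the same shape. Its ratio of mean CPM in aged to adult controls was higher, at 4.68 against 1.94 for Nr1d1 and 1.93 for Nr1d2. Its level was 33.4, 52.6 and 27.2 CPM in Adult controls 1 to 3, 56.9, 13.6 and 28.3 CPM in Adult burns 1 to 3, 152, 245 and 133 CPM in Aged controls 1 to 3, and 25.6, 21.7 and 66.5 CPM in Aged burns 1 to 3. The lowest aged control had more Dbp than any other library, while the other 3 groups overlapped one another. The listed relatives Tef and Hlf had means of 258 ± 63.8 and 50.5 ± 13.3 CPM in aged controls against 107 ± 29.5 and 14.2 ± 6.25 in adult controls (SD, n = 3). Nfil3, the repressor of the same D-boxes, was lowest there, with 3.14 to 4.29 CPM in aged controls against 9.06 or more in every other library.

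Compared with each other per kilobase of exon, the members kept 1 order at the top and changed places below it. Nr1d1 had the highest level in all 4 groups, at 65.5 CPM per kb in adult controls and 127 in aged controls, followed by Dbp at 20.5 and 96.2. Arntl, at 5.23 CPM per kb in adult controls, was above Per2 (1.55), Bhlhe41 (0.996) and Ciart (0.342) there. In aged controls Arntl was at 1.58 CPM per kb, below Per2 (6.46), Bhlhe41 (6.27) and Ciart (2.81).

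Nr1d1 shares 263 exonic bases, 9.67% of its exonic length, with Thra on the opposite strand, and Dbp shares 539 bases, 29.3%, with Sphk2. Whether the counting used strand is not stated, so reads from these stretches may not be separable. Mean Sphk2 was 22.7 ± 2.58 CPM in aged controls and 46.7 ± 3.34 after aged burn (SD, n = 3), in the opposite order to Dbp. Thra was at 135 ± 10.1 and 76.0 ± 24.2 CPM (SD, n = 3), in the same order as Nr1d1.

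After burn in aged mice, Arntl and most of the repressor and output genes differed from aged controls in opposite directions. The hour of collection is not given, so its part in these differences was not tested. Arntl rose by 1.56 ± 0.25 on the log2 scale (edgeR adjusted p = 0.0118), and 6 members fell: Ciart by 2.54 ± 0.36, Dbp by 2.22 ± 0.49, Per3 by 1.98 ± 0.50, Per2 by 1.62 ± 0.40, Bhlhe41 by 1.43 ± 0.16 and Nr1d2 by 1.04 ± 0.20. Their edgeR adjusted p-values ran from 0.00620 for Bhlhe41 to 0.0430 for Per3. The remaining 3 did not pass: Nr1d1 had a log2 fold change of −1.65 ± 0.50 (adjusted p = 0.0680), Cry1 of 0.52 ± 0.20 (adjusted p = 0.110) and Clock of −0.09 ± 0.22 (adjusted p = 0.759). With 7 of 10 called, the share stood beside 16.7% of all 15132 genes tested (13.7% up and 3.03% down). The median log2 fold change of the 10 was −1.52 beside −0.01 over all genes tested, and burned and untreated aged libraries did not overlap for 9 members, all but Clock, against 50.6% of all genes.

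The count depended on single libraries, since each group has 3. It was 2 without Aged control 1 (Ciart and Bhlhe41), 3 without Aged control 2 (these and Arntl), 0 without Aged control 3 and 2 without Aged burn 1 (Ciart and Bhlhe41). It was 8 without Aged burn 2 and 9 without Aged burn 3. The count over all genes, 2534 in the full fit, moved as well. It was 575 and 410 without Aged controls 1 and 2, and 872, 3265 and 5743 without Aged burns 1, 2 and 3. Without Aged control 3 no gene at all passed edgeR's adjusted threshold, 4227 genes had an unadjusted p under 0.05, and the adjusted p of Bhlhe41 was 0.0517 and of Arntl 0.0635. Over the 13 alternatives to this fit, the adjusted p of Bhlhe41 ran from 9.97e-13 to 0.0517 and that of Arntl from 3.84e-07 to 0.0635.

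Marker genes of other cell types moved with this comparison. The summed fat-cell markers were at 59431 to 66998 CPM in aged controls and 13617 to 38824 after burn, the 12 macrophage markers led by Lyz2 at 549 to 968 and 3311 to 16742 CPM, and the 8 cell cycle markers led by Mki67 at 5.85 to 11.5 and 202 to 421 CPM. All 12 fat-cell markers had a log2 fold change below 0, with a median of −1.15, and 11 did not overlap between groups, though 1 was called. Of the other lists, all 12 macrophage and all 8 cell cycle markers were above 0, with 10 and 8 called up. In the neutrophil, lymphocyte and skeletal muscle lists 2, 1 and 1 were called up. Over all genes 13.7% were called up, 3.03% were called down and 50.6% did not overlap. Within burned aged mice, Dbp, Per3 and Nr1d1 were highest in Aged burn 3 and lowest in Aged burn 2, the order of the fat-cell sum. Leaving Aged burn 2 out, the fold changes were −1.94 for Dbp, −1.61 for Per3, −1.25 for Nr1d1 and 1.46 for Arntl on the log2 scale, with edgeR adjusted p-values of 0.0233, 0.0155, 0.00661 and 0.00732. In bulk tissue, fewer cells of a type and less RNA per cell cannot be told apart, and the part of cell makeup in these changes was not tested.

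**Figure D2:**
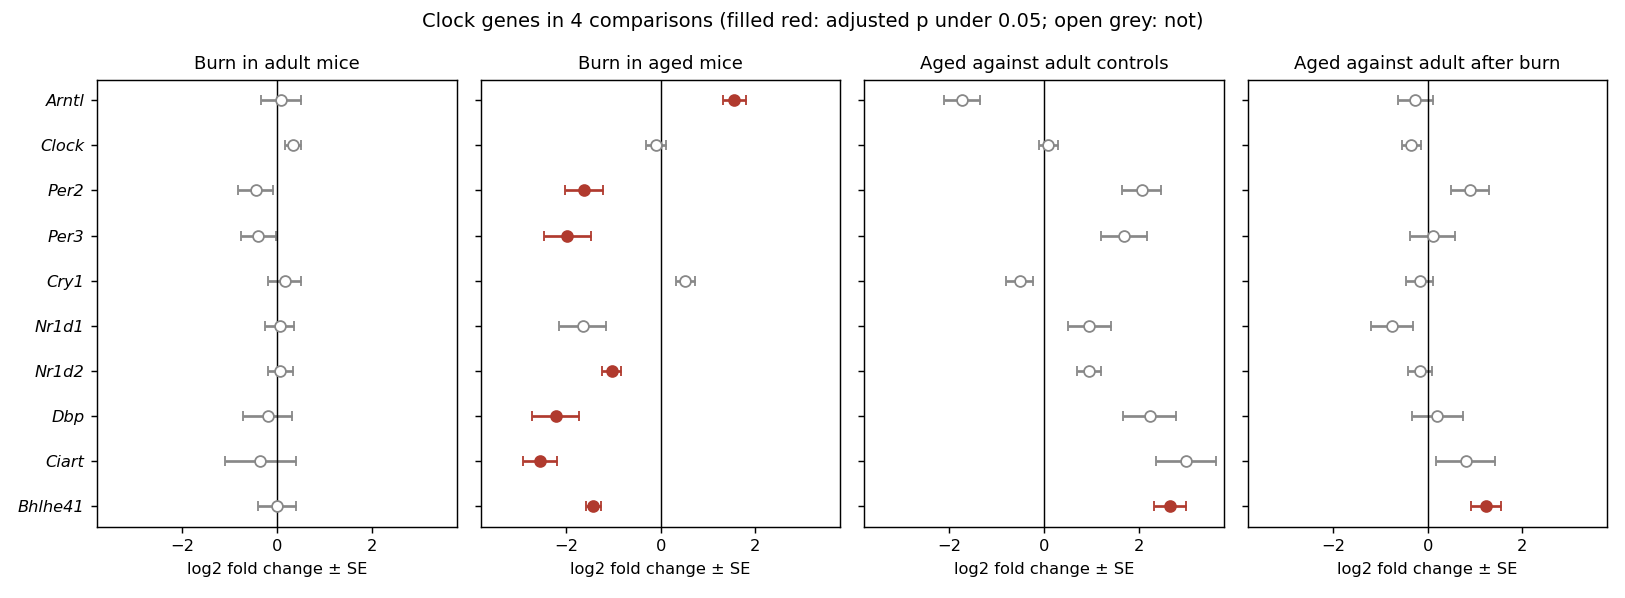
Log2 fold change (x axis) with SE bars for the 10 clock genes (y axis) in 4 comparisons, with filled red points for an edgeR adjusted p under 0.05. In aged mice Arntl lies at 1.56 after burn and 6 repressor and output genes between −2.54 and −1.04, while in adult mice all 10 lie between −0.45 and 0.33.

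In adult mice no member passed the test after burn, beside 6 of 14600 genes tested (0.0411%) and 638 (4.37%) at an unadjusted p under 0.05. None of the 10 had an unadjusted p under 0.05 either, DESeq2 and limma-voom also called 0 of them (beside 0.432% and 0.0616% of all genes), and their edgeR adjusted p-values ran from 0.788 to 0.996. Log2 fold changes lay between −0.45 ± 0.36 for Per2 and 0.33 ± 0.16 for Clock, with 0.09 ± 0.42 for Arntl, −0.20 ± 0.52 for Dbp and −0.35 ± 0.76 for Ciart. These SEs leave room for sizeable changes, so the result does not show that the adult clock genes were unaffected. The groups overlapped for all members but Clock, whose 3 burned libraries were above the 3 controls, against 10.2% of all genes without overlap. Signs in adult mice moved with single libraries: Dbp ran from −0.85 to 0.18 and Arntl from −0.44 to 0.37 as each was left out in turn.

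Whether the burn response differed between ages was tested directly, as the aged minus the adult log2 fold change over the 12 libraries. No member passed after adjustment, beside 1845 of 15553 genes tested (11.9%). The nearest were Nr1d2 at −1.11 (edgeR adjusted p = 0.0600), Bhlhe41 at −1.42 (0.0615), Arntl at 1.47 ± 0.52 (0.0837), Nr1d1 at −1.71 (0.0904) and Dbp at −2.02 ± 0.77 (0.0974). An unadjusted p under 0.05 was reached by 7 of the 10 members and by 34.5% of all genes. The count of members called was 6 with DESeq2 (beside 24.8% of all genes) and 0 with limma-voom (beside 5.36%). It was 5 when Aged burn 3 was left out of the edgeR fit, beside 4039 genes in all. A different response in the 2 ages was thus neither established nor shown to be absent.

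Untreated aged mice were then compared with untreated adults, a comparison that uses the same 3 aged control libraries as the burn comparison in aged mice. Bhlhe41 was higher in aged controls by 2.65 ± 0.34 on the log2 scale (edgeR adjusted p = 0.0238), and was the only member called, beside 66 of 15553 genes (0.424%, with 0.238% higher). No other member passed (edgeR adjusted p-values in brackets): Ciart was at 3.01 ± 0.63 (0.0662), Dbp at 2.23 ± 0.56 (0.0829), Per2 at 2.06 ± 0.42 (0.0589), Per3 at 1.69 ± 0.48 (0.0850), Nr1d2 at 0.95 (0.0829) and Arntl at −1.73 ± 0.38 (0.0697). Nr1d1 was at 0.96 (0.200), Cry1 at −0.52 (0.280) and Clock at 0.09 (0.811). An unadjusted edgeR p under 0.05 was reached by 7 of the 10 members and by 26.3% of all genes. Ranges did not overlap for 8 of 10 members, all but Clock and Cry1, against 33% of all genes, and the median was 1.32 beside −0.06 over all genes tested. As a ratio of mean CPM, aged controls were at 4.68 times adult controls for Dbp, 4.18 times for Per2, 3.22 times for Per3 and 6.30 times for Bhlhe41.

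This count too moved with the libraries in the fit. DESeq2 called 7 members, beside 14.3% of all genes. With edgeR, 7 were called without Adult control 2, beside 2011 genes in all. Without Aged burn 2, which enters through the shared spread estimate, 6 were called, beside 789 genes in all. Leaving out Adult control 1 gave 2, beside 38 genes in all. Bhlhe41 lost its call without Adult control 3 or without any 1 of the 3 aged controls. With Adult control 1 and Adult burn 1 both left out, Bhlhe41 was at 2.62 and Ciart at 4.13 (both adjusted p = 0.04997), Dbp at 2.15 (0.164) and Arntl at −1.53 (0.125). Summed fat-cell markers were at 28333 to 72639 CPM in adult controls and 59431 to 66998 in aged controls, the lowest being Adult control 1. Other marker sums were apart between these groups: macrophage markers at 1008 to 2827 CPM in adult and 549 to 968 in aged controls, cell cycle markers at 20.3 to 71.0 and 5.85 to 11.5, and lymphocyte markers at 11.1 to 1393 and 5.46 to 9.38. None of these markers was called, but all 12 macrophage, 8 cell cycle and 9 lymphocyte markers had a log2 difference below 0, with medians of −1.20, −2.45 and −5.54. The lymphocyte median rests largely on Adult control 1, at 1393 CPM, while Adult controls 2 and 3 were at 11.1 and 16.0 CPM. The part of cell makeup in the clock differences between controls was not tested.

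After burn, the 2 ages were compared in the same way. Bhlhe41 was the only member called, higher in aged burns by 1.23 ± 0.32 (edgeR adjusted p = 0.0200), beside 26.3% of all 15553 genes (15.2% higher), and the call was lost without Adult burn 2, Adult burn 3 or Aged burn 1. The median over the members was −0.03 beside 0.07 over all genes. Arntl was at −0.26, Dbp at 0.20, Per3 at 0.10 and Nr1d1 at −0.75 on the log2 scale, none of them called. The ranges were apart for Clock, Ciart and Bhlhe41, 3 of 10 members against 47.7% of all genes. Aged and adult burned libraries thus overlapped in Arntl, Per2, Per3, Cry1, Nr1d1, Nr1d2 and Dbp.

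The relation between the arms was also read within each library, as the log2 ratio of 2 CPM values with 1 added to each. The ratio of Arntl to Dbp was −0.69, −2.14 and −0.65 in Adult controls 1 to 3, −2.42, 0.98 and −0.97 in Adult burns 1 to 3, −4.52, −5.78 and −4.37 in Aged controls 1 to 3, and −0.75, −0.38 and −2.38 in Aged burns 1 to 3. The highest aged control, at −4.37, was below the lowest library of the other groups, at −2.42, and those groups overlapped. For Arntl to Nr1d1 the group means were −3.37 ± 0.90 in adult controls, −3.44 ± 1.07 after adult burn, −5.90 ± 0.44 in aged controls and −2.62 ± 1.30 after aged burn (SD, n = 3). Again the aged controls alone were apart, with −5.64 as their highest library against −4.48 for the lowest of the others. These ratios restate levels given above on 1 scale and add no separate evidence.

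**Figure D3:**
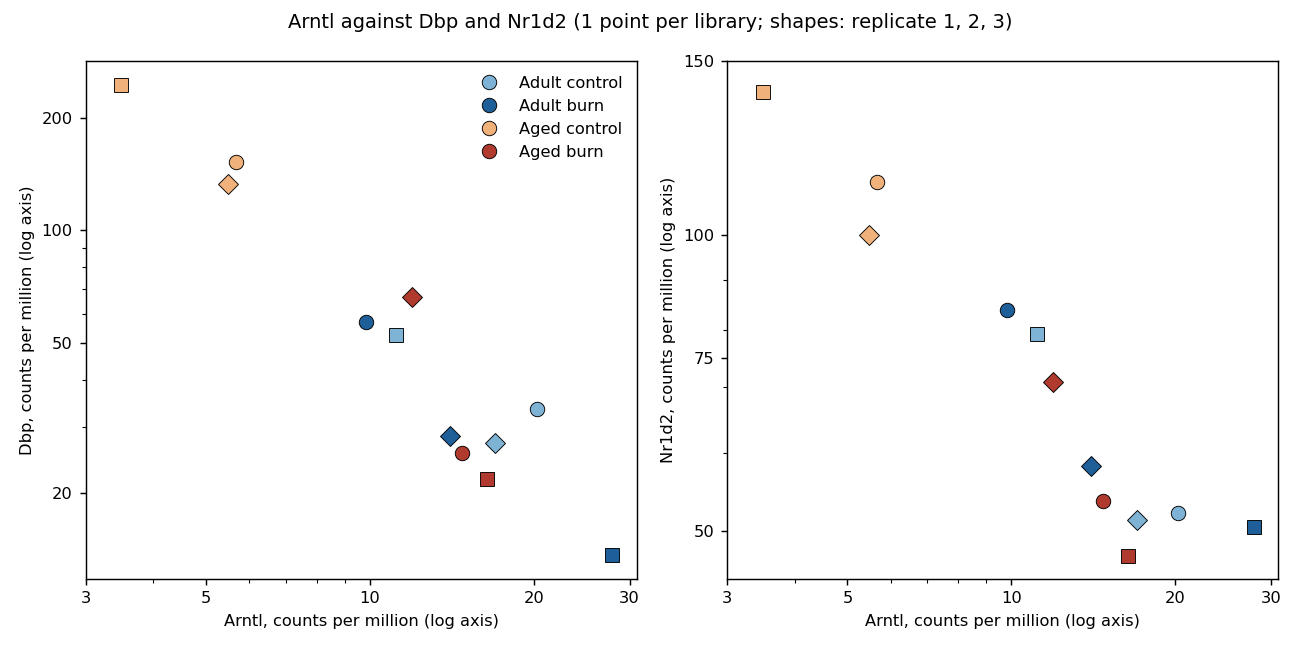
Arntl (x axis) against Dbp and against Nr1d2 (y axes), all in CPM on log axes, with a point for each of the 12 libraries colored by group. Points run from the 3 aged controls at low Arntl and high Dbp to Adult burn 2 at 27.9 CPM of Arntl and 13.6 CPM of Dbp. In each group the library lowest in Arntl is the highest in Dbp and Nr1d2, and no slope was fitted.

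Within single groups, the opposition was present at the library lowest in Arntl, but not always at the highest. Adult control 1 and Aged control 1 were highest in Arntl, while Dbp was lowest in Adult control 3 and Aged control 3. In the burned groups Dbp was lowest where Arntl was highest, in Adult burn 2 and Aged burn 2. In all 4 groups the library lowest in Arntl (Adult control 2, Adult burn 1, Aged control 2 and Aged burn 3) was the highest in Per2, Per3, Nr1d1, Nr1d2, Dbp and Bhlhe41, 6 of the 9 other members. Over all genes tested, 556 of 15146 (3.67%) were highest in those 4 libraries, and among the 25 other clock genes 3 were: Tef, Hlf and Csnk1e. Ciart followed the pattern in 2 of 4 groups, and Cry1 had the reverse one in 3 of 4, being lowest where Arntl was lowest. Adult burn 1, low in Arntl at 9.84 CPM, had 56.9 CPM of Dbp, and Adult burn 2, high in Arntl, had 13.6. The 4 libraries lowest in Arntl were also the lowest of their groups in summed macrophage, neutrophil and cell cycle markers. Their macrophage sums were 1008 CPM in Adult control 2, 984 in Adult burn 1, 549 in Aged control 2 and 3311 in Aged burn 3. The fat-cell, lymphocyte and skeletal muscle sums kept no single rank in them. The part of cell makeup in this pattern was not tested.

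Likeness over the 12 libraries was measured by Pearson's r of log2(CPM + 1) for the 11164 genes with a mean of at least 5 CPM. These points share groups and library scaling, so r is a description. Of all these genes, Arntl was the most opposite to Dbp (r = −0.96, Spearman's rho = −0.88; r = −0.88 with group means removed). Nr1d2 was the most like Dbp (0.96), then Per2 (0.95) and Tef (0.95), with Per3 at rank 6, Hlf at 45, Bhlhe41 at 67 and Nr1d1 at 382. Clock had an r of −0.15 and Cry1 of −0.71 with Dbp. Seen from Arntl, the most opposite gene was Dbp, then Nr1d2, with Per2 at rank 6, Bhlhe41 at 10, Tef at 11 and Per3 at 23, while Cry1 (0.72) and Nfil3 (0.78) went with it. With group means removed, Bhlhe41 was at rank 2 of the most opposite to Arntl, Dbp at 4 and Nr1d2 at 5. Tef was then at 103, Per2 at 113 and Per3 at 482. For Dbp, Arntl was then at rank 7 of the most opposite. Nr1d2 stayed the most like Dbp, with Per2 at 4, Tef at 17, Bhlhe41 at 18 and Per3 at 58. Ciart was under the CPM floor and has no rank.

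Other genes of the clock were read from the wider list. After burn in aged mice 10 of the 25 other clock genes were called, 2 up and 8 down, beside 16.7% of all genes tested, with a median of −0.50. The D-box repressor Nfil3 rose by 2.67 (edgeR adjusted p = 0.0475) and Timeless, a replication fork protein related to the fly clock gene, rose by 1.73 (0.0253). Hlf fell by 2.42 (0.0452), Tef fell by 1.53 (0.0366), and Bhlhe40, the sister repressor of Bhlhe41, fell by 1.41 (0.0418). Per1 fell by 0.81 (0.0490), and Rora, the activator at ROREs, fell by 0.73 (0.0363). Usp2, a deubiquitinase driven by the clock, and Csnk1e, a kinase of PER proteins, fell by 0.92 and 0.53. Aged burn 2 held 50.9 CPM of Nfil3, while Aged burns 1 and 3 held 10.2 and 9.92 CPM, and without Aged burn 2 its log2 fold change was 1.43 (adjusted p = 0.0038). The Nfil3 call was lost without any 1 of the 3 aged controls or Aged burn 1 (edgeR adjusted p from 0.0607 to 0.163). In those fits the calls of the other genes named here were lost too, except that of Per1 without Aged control 1. Per1 also lost its call without Aged burn 2, and Bhlhe40 without Aged burn 3. DESeq2 called 15 of the 25 and limma-voom 7, beside 5011 and 1994 of all genes.

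In adult mice edgeR called 0 of the 25 after burn, with 0 at an unadjusted p under 0.05 and 0 by DESeq2, beside 0.0411% of all genes. Between untreated aged and adult mice edgeR also called 0 (beside 0.424%), but 13 had an unadjusted p under 0.05 (beside 26.3% of all genes) and DESeq2 called 11, 9 higher and 2 lower (beside 14.3%). The log2 differences between controls were 1.83 for Hlf (edgeR adjusted p = 0.0896), 1.39 for Per1 (0.0724), 1.27 for Tef (0.0829) and −1.67 for Npas2 (0.0750). After burn, aged mice differed from adults in 5 of the 25, a share below the 26.3% of all genes. Among them Wee1, a cell cycle kinase, was higher by 1.58 (adjusted p = 0.00314), and Usp2 at −1.18 (0.00548), Npas2 at −1.16 (0.0495) and the corepressor enzyme Hdac3 at −0.41 (0.0305) were lower.

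**Figure D4:**
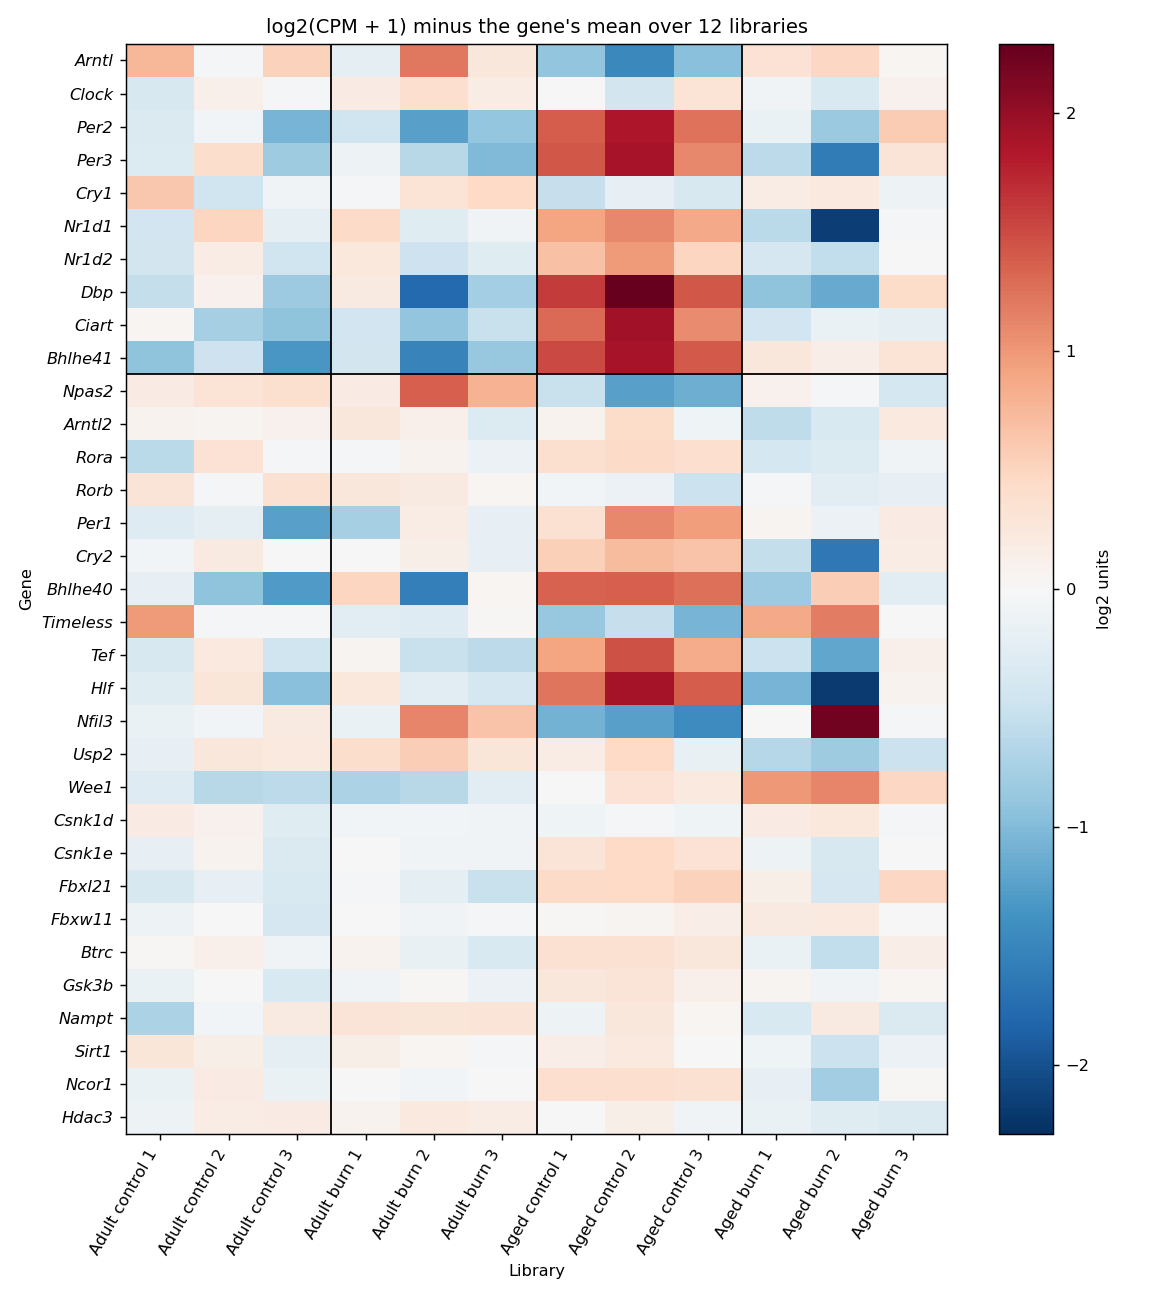
Heatmap of the 10 members (above the black line) and 23 of the 25 other clock genes (below it), rows, in the 12 libraries, columns by group, colored by log2(CPM + 1) minus the gene's mean over the libraries. The 3 aged controls are high for Per2, Per3, Nr1d1, Nr1d2, Dbp, Ciart, Bhlhe41, Tef and Hlf and low for Arntl, Npas2 and Nfil3, and Clock and Cry1 show no such block.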

How the data were processed

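The authors deposited raw counts per gene in separate tables for the 2 ages. Both list the same 27179 Entrez identifiers; 25275 matched a symbol of GRCm38.p6, and the rest carried 0.366% to 0.76% of the counts. Per the labels' protocols, RNA was extracted with Trizol, selected for poly(A) and sequenced from directional libraries. The submitters' processing notes name FastQC, MultiQC, cutadapt, HISAT2, featureCounts and mm10. Versions, annotation and strand setting are not stated there.

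The main test was edgeR 4.0.16 in R 4.3.3 (filterByExpr, TMM, quasi-likelihood F test, Benjamini-Hochberg, threshold 0.05). Burn was fitted within each age on 6 libraries, and the other comparisons over all 12 with 1 mean per group. The SE is the size of the log2 fold change over the root of the F statistic. The test was checked on simulated counts. Replicate libraries differed by more than sampling noise (chi-square per degree of freedom at least 29.5). Alternatives were DESeq2 1.42.0, limma-voom (limma 3.58.1), other scalings, no filter, a replicate block and each library left out.

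The members and gene lists were chosen with earlier results of these data known. Named genes are the 10 members, other clock genes named by role or call, and the 5 genes most like and most opposite Dbp and Arntl. Results of 2 of the other clock genes are not reported here.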

Additional observations from a re-analysis of the deposited data

Results flagged for a closer look

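Among the 35 clock genes and 10 glucocorticoid-responsive genes listed, the burn response of 3 differed between aged and adult mice by a test of the difference itself (aged minus adult log2 fold change, edgeR over 12 libraries); none is among the 10 members, and the same test called 11.9% of all genes. Timeless differed by 2.34 ± 0.52 (edgeR adjusted p = 0.0239), with 5.08 ± 1.16 CPM in aged controls and 16.8 ± 6.74 after aged burn against 12.8 ± 5.98 and 8.43 ± 1.15 in adults (SD, n = 3). Usp2 differed by −1.25 ± 0.30 (edgeR adjusted p = 0.0305), with 11.7 ± 2.75 and 6.18 ± 0.80 CPM in aged mice and 11.1 ± 1.96 and 14.0 ± 1.47 in adults (SD, n = 3). Klf9, a glucocorticoid-responsive gene, differed by −1.83 ± 0.41 (edgeR adjusted p = 0.0247), with 197 ± 21.1 and 75.6 ± 27.6 CPM in aged mice and 116 ± 38.4 and 158 ± 3.70 in adults (SD, n = 3). All 3 calls were lost without Adult burn 1, Adult burn 2 or any of the 3 aged controls, and those of Timeless and Usp2 also without Aged burn 1 or Aged burn 2.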

How the results depend on the processing

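Genes called by edgeR numbered 6 for burn in adults (62 with DESeq2, 14 with all 12 libraries in the fit, 0 to 5 as each library was left out, and 0 with Adult control 1 and Adult burn 1 both left out, an alternative chosen after seeing the data). They numbered 2534 for burn in aged mice (DESeq2 5011, 0 to 5743 as libraries were left out), 1845 for the difference (library totals as scaling 2844, DESeq2 3783, voom 833, both left out 0, each left out 0 to 4039), 66 between controls (43, DESeq2 2184, both left out 18, each left out 0 to 2011) and 4093 after burn (each left out 1840 to 5681). Members called were 7 for burn in aged mice (DESeq2 9, each left out 0 to 9), 0 for the difference (RLE scaling 1, DESeq2 6, each left out 0 to 5), 1 between controls (DESeq2 7, voom 2, both left out 2, each left out 0 to 7) and 1 after burn (each left out 0 to 1). With a pseudocount of 5 the ratio of Arntl to Nr1d1 in aged controls was −5.16.

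Whether the replicate numbers pair the libraries cannot be settled with 3 libraries per group. Deviations of same-numbered libraries correlated at 0.02 to 0.17 in adults and −0.19 to −0.07 in aged mice. Those of differently numbered libraries correlated at −0.194 to 0.0952 in adults and −0.201 to 0.237 in aged mice. With the replicate block, genes called were 0 for burn in adults, 917 in aged mice, 413 for the difference and 0 between controls, and members called 2 for burn in aged mice and 0 between controls; Arntl in adults was at −0.0202.

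Signs turned only for log2 fold changes that were not called. For burn in adults, scaling by library totals gave −0.13 for Arntl, −0.0926 for Cry1, −0.13 for Nr1d1, −0.13 for Nr1d2 and −0.0899 for Hlf, voom gave −0.0211 for Arntl, and leaving both libraries out gave −0.36 for Nr1d1, −0.27 for Nr1d2, −0.13 for Hlf and 0.51 for Ciart. That scaling moved the median of all genes by −0.20 for burn in adults, 0.11 in aged mice, 0.32 for the difference and 0.25 after burn, and with it 93.7% of calls in aged mice were higher (81.9% with TMM), 94.1% (81.3%) for the difference, 44.2% (56.1%) between controls and 77.8% (57.8%) after burn; the members' median in aged mice stayed at −1.40. As each library was left out, values ran from −0.44 to 0.37 for Arntl, −0.0682 to 0.55 for Cry1, −0.18 to 0.38 for Nr1d1, −0.17 to 0.30 for Nr1d2, −0.15 to 0.50 for Hlf, −0.74 to 0.76 for Ciart, −0.85 to 0.18 for Dbp, −0.35 to 0.28 for Bhlhe41 and −0.40 to 0.0873 for Tef. In aged mice Clock was at 0.0179 with library totals and −0.29 to 0.0905 as libraries were left out. Both left out gave −0.19 for Cry1 in the difference (−0.0427 to 0.58 with each left out) and −0.0411 for Clock between controls (−0.11 to 0.26). After burn, library totals gave 0.083 for Cry1, 0.10 for Nr1d2 and 0.16 for Tef, both left out 0.0742 for Nr1d2 and 0.13 for Tef, and voom −0.0686 for Per3; with each left out the ranges were −0.34 to 0.0727 for Nr1d2, −0.47 to 0.17 for Tef, −0.48 to 0.47 for Per3, −0.55 to 0.27 for Arntl, −0.47 to 0.85 for Dbp and −0.71 to 0.90 for Nfil3. The other alternatives kept the sign (1269 of the fold changes kept sign and side of the threshold, 187 lost the call and 66 gained it); the cause was not tested. Ciart, at under 1.40 CPM in most libraries, is limited by depth.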

Other observations

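Glucocorticoid-responsive genes, which follow a hormone with its own daily rhythm, were read beside the clock in a list of 10. After burn in aged mice Dusp1, a phosphatase that limits MAP kinase signals, rose by 1.19 (edgeR adjusted p = 0.0439), from 29.9 ± 5.26 to 68.2 ± 27.9 CPM, and Klf9 fell by 1.38 (edgeR adjusted p = 0.0280), from 197 ± 21.1 to 75.6 ± 27.6 CPM (SD, n = 3). Both calls were lost without any 1 of the 3 aged controls or Aged burn 1 (adjusted p from 0.0822 to 0.161 for Dusp1 and from 0.0526 to 0.107 for Klf9), and limma-voom called 0 of the list up. The other 8 were not called, the 2 of 10 stood beside 16.7% of all genes, and the median of the 10 was −0.39 beside −0.01 over all genes tested. In adult mice edgeR and DESeq2 called 0 of 10, with 1 at an unadjusted p under 0.05 in each. Between burned aged and burned adult mice 4 were called by edgeR, beside 26.3% of all genes: Dusp1 higher by 1.09 (adjusted p = 0.0114) and Fkbp5 by 0.43 (0.0372), and Klf9 at −1.06 (0.0239) and Klf15 at −1.26 (0.0411) lower.

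Outside the clock list, the gene whose level over the 12 libraries was most like that of Dbp was Angptl2 (r = 0.94), with 323 ± 21.2 CPM in aged controls and 143 ± 57.7 after aged burn (SD, n = 3). The gene most opposite to Dbp was Dtx4 (r = −0.94), at 35.2 ± 4.06 and 66.5 ± 10.7 CPM. Rgs2, which damps G protein signals, was among the 5 most opposite (r = −0.92), at 7.98 ± 1.49 CPM in aged controls against 64.8 ± 22.6 in adult controls. Zfp938 was the most opposite to Arntl (r = −0.95) and Slc26a6 the most alike (r = 0.92). Sphk2, which overlaps Dbp on the opposite strand, was at rank 3 of likeness to Arntl (r = 0.90).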
